A study of Mus musculus with 2 samples.

Results

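The heart libraries of aged female mice held 104 expressed genes for long intergenic noncoding RNAs (lincRNAs), out of 6053 genes of that class and 55536 genes in all. A gene was taken where the annotation gave it at least 1 lincRNA transcript and no protein-coding transcript, and where its mean level over both libraries was 2 TPM or more. TPM is a relative abundance per transcript length, scaled to the same total in every library. H19, Meg3, Rian, Mirg, Airn, Kcnq1ot1 and Rmrp, which belong to imprinted clusters or to RNA processing, were left out by the rule, and 107 genes reached the minimum before they were removed. The levels chose the genes, so they are given below as a description and carry no test. Just inside the minimum were Gm15408 with a mean of 2.025 TPM, Gm28651 with 2.01 TPM and BC002059 with 2.01 TPM, and just outside it were 9030407P20Rik with 1.995 TPM, Gm28875 with 1.99 TPM and Lncppara with 1.935 TPM.

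LincRNAs are transcribed and processed like mRNAs but have no long open reading frame, and most are less abundant than mRNAs. Some stay in the nucleus, where they build nuclear bodies or coat a chromosome, and others act in the cytoplasm by binding proteins or microRNAs. Many serve as precursors, with small nucleolar RNAs (snoRNAs, which guide chemical modification of ribosomal RNA) or microRNAs cut from their introns or exons.

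Heart tissue of female mice aged 18 to 20 months gave both libraries. The mice were B6CASTF1/J, that is F1 animals with C57BL/6J and CAST/EiJ parents. No treatment and no second group were labelled. Each library was made from 300 ng of total RNA depleted of ribosomal RNA, with ERCC spike-ins. The labels name separate biosamples with the same donor entry, so the spread between replicate 2 and replicate 1 may be technical. Total expected counts were 36926429 for replicate 2 and 35897521 for replicate 1.

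Markers of the heart were abundant, and those of several other cell types differed between the libraries. All 8 cardiomyocyte markers lay between 392 and 8917 TPM in both libraries. The summed level of 6 adipocyte markers was 579 TPM in replicate 2 against 232 TPM in replicate 1, and that of 6 B and plasma cell markers 117 and 7.35 TPM in replicates 2 and 1. The 5 T cell markers summed to 15.3 TPM in replicate 2 against 1.91 TPM in replicate 1. The 5 airway markers summed to 233 TPM in replicate 2 against 0.54 TPM in replicate 1, with the alveolar marker Sftpc at 0 in both and Bpifa1, Scgb1a1 and Scgb3a2 at 0 in replicate 1. The 5 erythroid markers summed to 11150 TPM in replicate 2 against 23409 TPM in replicate 1. Endothelial and fibroblast markers summed to 138 and 189 TPM in replicate 2 and to 158 and 170 TPM in replicate 1. The part of these differences in the lincRNA levels was not tested. In bulk tissue fewer cells of a type and less RNA per cell cannot be told apart.

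Some of these genes are known above all for the small RNAs or sequence elements they carry, and those sequences are shown first or beside the gene. Mir99ahg, 3110039I08Rik (Mir100hg in RefSeq), Dleu2 and A330023F24Rik hold microRNA genes on their own strand. The mature microRNAs, from RefSeq on GRCm38.p6, are shown with the seed (bases 2 to 8, which pair with targets) in capitals. Mir99ahg on chromosome 16 and 3110039I08Rik on chromosome 9 both carry miR-125b, and their miR-99a and miR-100 share a seed. Mirlet7a-2 also lies inside 3110039I08Rik and is only named here. A seed is shared by miR-15a and miR-16 within Dleu2, and by miR-29b and miR-29c within A330023F24Rik.
miR-99a-5p (Mir99ahg, chr16:77598940-77598961, plus strand): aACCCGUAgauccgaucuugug
miR-100-5p (3110039I08Rik, chr9:41531437-41531458, plus strand): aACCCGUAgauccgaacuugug
miR-125b-5p (Mir99ahg, chr16:77646279-77646300, plus strand): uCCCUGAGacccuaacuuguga
miR-125b-5p (3110039I08Rik, chr9:41581940-41581961, plus strand): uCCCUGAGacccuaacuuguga
let-7c-5p (Mir99ahg, chr16:77599672-77599693, plus strand): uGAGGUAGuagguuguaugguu
miR-15a-5p (Dleu2, chr14:61632075-61632096, minus strand): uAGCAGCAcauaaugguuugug
miR-16-5p (Dleu2, chr14:61631936-61631957, minus strand): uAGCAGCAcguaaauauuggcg
miR-29b-3p (A330023F24Rik, chr1:195037091-195037113, plus strand): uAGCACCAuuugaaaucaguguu
miR-29c-3p (A330023F24Rik, chr1:195037600-195037621, plus strand): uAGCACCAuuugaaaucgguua

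Of 13 microRNA genes annotated inside 6 of the lincRNA genes, all 13 had 0 counts in both libraries. These genes are 65 to 111 nt long, and few transcripts that short had any count, as given with the comparison of tables, so a count of 0 sets no limit on the microRNAs. The host RNAs themselves were measured at low levels. Mir99ahg had 6.13 TPM in replicate 2 against 7.54 TPM in replicate 1, and 3110039I08Rik had 2.07 TPM in replicate 2 against 3.41 TPM in replicate 1. The levels of 3110039I08Rik were spread over 48 annotated transcripts and 23898 exonic bases, the most exonic sequence of the 104 genes. Dleu2, from a region often deleted in human chronic lymphocytic leukaemia, had 6.47 TPM in replicate 2 against 5.07 TPM in replicate 1. A330023F24Rik had 5.02 TPM in replicate 2 against 3.89 TPM in replicate 1. The microRNA host list was matched by the gene names of the annotation. By these names 9 of its genes belong to the class, and 4 passed the minimum (Mir99ahg, Dleu2, Carmn and Lncpint). No microRNA gene was annotated on the same strand inside Carmn or Lncpint. Mir100hg of the list was not found by that name, but it is 3110039I08Rik here and passed the minimum.

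Summed over the 104 genes, the levels were 10749 TPM in replicate 2 against 9563 TPM in replicate 1, a mean of 10156 ± 839 TPM (SD, n = 2) or 1.02% of all TPM. Genes listed as lying over ribosomal RNA sequence, 2 of 3 in the class, made up 76.4% of this sum. Gm26917 (chr17:39843013-39846341, plus strand) had 6891 TPM in replicate 2 against 6202 TPM in replicate 1. Its neighbour Gm42418 (chr17:39846958-39848788, plus strand) had 1396 TPM in replicate 2 against 1021 TPM in replicate 1. RefSeq lists Gm42418 as Rn18s-rs5, a pseudogene, and 96.3% of its 31-nt words also occur in CT010467.1, an rRNA gene annotated on the opposite strand. Gm26917 shared 0% of its words with any other annotated gene. How much of these levels is ribosomal RNA left after depletion was not tested. Without these genes the sum was 2462 TPM in replicate 2 against 2341 TPM in replicate 1, of which Malat1 held 49.2%. This share is from the RSEM-layout table. The kallisto-layout table gave Malat1 less, with 614 TPM in replicate 2 against 548 TPM in replicate 1. There Gm20186 lay above Malat1, with 920 TPM in replicate 2 against 1297 TPM in replicate 1.

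**Figure D1:**
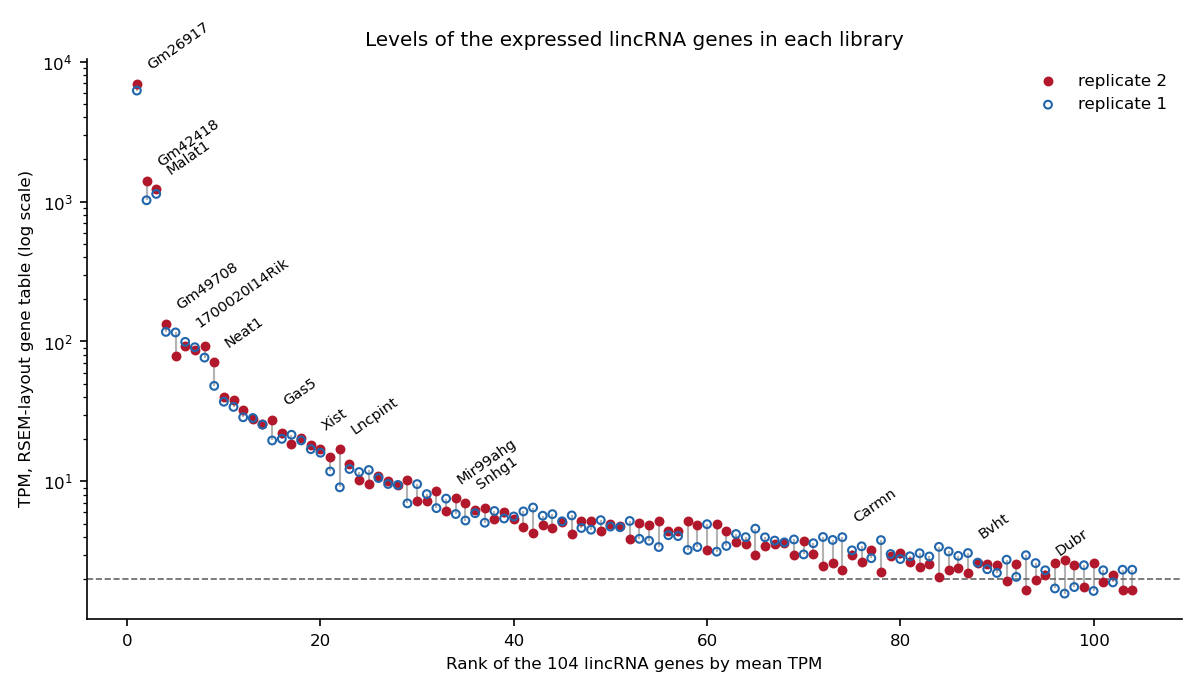
Level of each of the 104 lincRNA genes (y axis, TPM of the RSEM-layout gene table, log scale) by rank of its mean (x axis), with replicate 2 as filled and replicate 1 as open points joined by a line, and the minimum of 2 TPM dashed. Gm26917, Gm42418 and Malat1 lie above 1000 TPM in both libraries, 9 genes have a mean of 50 TPM or more, and 59 lie between 2 and 5 TPM.

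Most of the other lincRNA genes were near the minimum. The median of the 104 means was 4.50 TPM, against 10.3 TPM for 9993 nuclear protein-coding genes chosen by the same minimum. A mean of 10 TPM or more was reached by 26 genes and one of 5 TPM or more by 45. In 12 genes the level of 1 library was under 2 TPM. The median expected count per gene was 134 in replicate 2 and 148 in replicate 1, and 15 genes had a mean count under 50, so their levels are the least certain. Of the whole class, 4550 of 6053 genes were at 0 TPM in both libraries.

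Of the list of nuclear RNAs, 2 of 3 genes in the class reached the minimum, as did 1 of 3 of the X inactivation centre. Malat1 (chr19:5795690-5802672, minus strand), a nuclear RNA of splicing speckles, had 1228 TPM in replicate 2 against 1133 TPM in replicate 1. Neat1 (chr19:5824708-5845478, minus strand), the scaffold of paraspeckles, had 71.3 TPM in replicate 2 against 48.2 TPM in replicate 1. Neat1 was higher in replicate 2 by 0.57 on the log2 scale of TPM, or 1.48-fold. Its expected counts differed less, with 10761 in replicate 2 and 8508 in replicate 1. After scaling by library total they were 1.23-fold higher in replicate 2, with an exact interval of 1.19 to 1.27. Xist (chrX:103460366-103483254, minus strand), which coats the inactive X chromosome in female cells, had 18.3 TPM in replicate 2 against 17.01 TPM in replicate 1. Jpx and Ftx of the X inactivation centre were in the class but under the minimum, with 1.72 and 1.58 TPM in replicate 2 and 1.16 and 1.24 TPM in replicate 1. Miat, a nuclear RNA linked to heart disease in human, had 0.02 TPM in replicate 2 against 0.05 TPM in replicate 1.

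Malat1 and the long form of Neat1 are known to end in a triple helix of U-rich and A-rich stretches in place of a poly(A) tail. The 100 bases of each 3′ end, read from the GENCODE M21 transcripts Malat1-201 and Neat1-201 (GRCm38), are shown with every word of 9 or more bases that occurs in both stretches in capitals.
Malat1 (chr19:5795982-5796081, minus strand): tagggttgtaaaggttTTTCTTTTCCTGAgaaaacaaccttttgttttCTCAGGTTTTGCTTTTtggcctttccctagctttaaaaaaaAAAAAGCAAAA
Neat1 (chr19:5824708-5824807, minus strand): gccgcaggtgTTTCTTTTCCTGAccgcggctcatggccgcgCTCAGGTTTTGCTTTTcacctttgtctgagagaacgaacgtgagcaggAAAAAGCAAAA
In each stretch 40 of 100 bases fell into shared words, which hold both U-rich runs (written with T) and the A-rich run. The annotated Neat1-201 ends at this run, while Malat1-201 goes on for 292 bases beyond it.

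The short and long forms of Neat1 were both read. Neat1-202 (3004 nt) took 85.3% of the gene's TPM in replicate 2 and 75.8% in replicate 1, and Neat1-201 (20771 nt), the form that builds paraspeckles, took 12.7% in replicate 2 and 19.8% in replicate 1. In TPM, Neat1-201 had 9.09 in replicate 2 and 9.54 in replicate 1, and Neat1-202 had 60.8 in replicate 2 and 36.5 in replicate 1. Between the libraries it was Neat1-202 that differed, while Neat1-201 was nearly level. The annotated short form lies almost wholly inside the long one and starts within 2 nt of it, so the split between them was inferred by the quantification. Xist-201 (17946 nt) took 82.1% of Xist in replicate 2 and 80.7% in replicate 1. Malat1 depended on the table, as described with the comparison of tables below.

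Of the list of cytoplasmic and conserved lincRNAs, 2 of 8 genes in the class reached the minimum, and both lay above Neat1 and Xist in TPM. 1700020I14Rik (chr2:119594297-119607502, plus strand), named Oip5os1 in RefSeq and known as Cyrano, had 92.8 TPM in replicate 2 against 99.4 TPM in replicate 1. Cyrano is known for a stretch that pairs with the microRNA miR-7 and leads to its degradation. The stretch is shown beside the microRNA, with the complementary runs of the lincRNA and the seed of the microRNA in capitals.
1700020I14Rik (chr2:119602135-119602163, plus strand): gaACAACAAAATCACcaatGTCTTCCAtt
miR-7a-5p (chr7:78888295-78888317, plus strand): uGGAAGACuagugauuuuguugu
A script found 13 and 8 complementary bases on the sides of 4 bases that do not pair, opposite 2 bases of the microRNA's 23. The stretch lies in 1700020I14Rik-202 (8300 nt), which took 68.2% of the gene's TPM in replicate 2 and 68.3% in replicate 1.

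2900097C17Rik (chr2:156388065-156392979, minus strand), named Norad in RefSeq, had 86.3 TPM in replicate 2 against 91.0 TPM in replicate 1. Norad is known to bind Pumilio proteins, which repress mRNAs that carry the motif TGTANATA. On the sense strand, 2900097C17Rik-202 (4915 nt) held 11 copies of that motif. Of 8904 other annotated transcripts of 4000 to 6000 nt, 40.9% held at least 1 copy and 2 held as many or more. A stretch of 100 bases with 2 of them, the most that any such stretch held, is shown with the motif in capitals.
2900097C17Rik (chr2:156390445-156390544, minus strand): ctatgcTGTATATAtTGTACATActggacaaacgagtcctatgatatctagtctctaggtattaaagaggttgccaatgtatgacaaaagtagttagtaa
Gm7292 on chromosome 6 had 10.2 TPM in replicate 2 against 11.7 TPM in replicate 1. It shared 85.9% of its words with 2900097C17Rik and held 9 motifs in 2527 nt. Reads may be split between these genes, so the level of Gm7292 is uncertain.

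Genes that host snoRNAs formed the largest group with a shared role. Annotated snoRNA or small Cajal body RNA (scaRNA) genes, 35 in all, lay inside 12 of the 104 genes. Of these, 31 lay wholly within an exon of at least 1 host transcript. Most annotated transcripts of Gas5 and Snhg1 are of the retained-intron type, in which an intron is kept as part of an exon. Gas5, the host with most of these small RNA genes and the highest level, had 27.5 TPM in replicate 2 against 19.6 TPM in replicate 1. Snhg8 had 8.53 TPM in replicate 2 against 6.45 TPM in replicate 1, and Snhg1 had 7 TPM in replicate 2 against 5.26 TPM in replicate 1. Snhg12 had 4.99 TPM in replicate 2 against 3.15 TPM in replicate 1. Snhg20, Snhg6, Epb41l4aos and Snhg5 lay between 2.79 and 4.85 TPM in both libraries.

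All hosts except AA465934 and AC121821.1, or 10 of 12, were higher in replicate 2 of the RSEM-layout table, as were 52 of the 104 lincRNA genes and 53.2% of all genes at the minimum. By kallisto-layout TPM 11 of 12 were higher in replicate 2, against 62.6% of all genes. There AA465934 had 9.23 TPM in replicate 2 against 8.79 TPM in replicate 1 and AC121821.1 was also higher in replicate 2, while AI506816 had 11.4 and 11.9 TPM in replicates 2 and 1. The median log2 ratio of the 12 was 0.33, and none was 2-fold apart. Of the 35 small RNA genes, 26 had 0 counts in both libraries. These genes are shorter than 300 nt, and few transcripts that short had any count, so a count of 0 sets no limit on them. The highest was Snora74a inside AC121821.1, with 749 counts in replicate 2 and 498 in replicate 1. Snord22 inside Snhg1 had 50.8 counts in replicate 2 and 28.8 in replicate 1, and Gm26083, a scaRNA inside Snhg20, had 59.3 and 33.3 counts in replicates 2 and 1. Of the list of snoRNA hosts, 12 genes belong to the class and 8 passed the minimum. Dancr, Snhg17, Snhg18 and Snhg10 were under it.

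**Figure D2:**
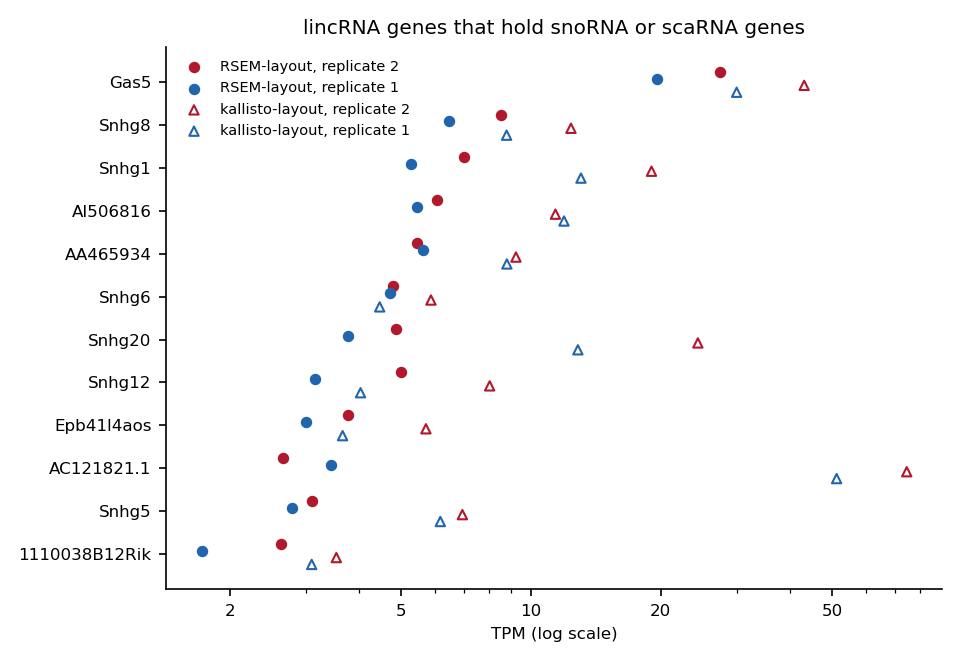
TPM (x axis, log scale) of the 12 lincRNA genes that hold snoRNA or scaRNA genes (rows), with filled circles for the RSEM-layout and open triangles for the kallisto-layout table, replicate 2 in red and replicate 1 in blue. The kallisto-layout values lie to the right for most genes, farthest for AC121821.1 with 74.5 TPM in replicate 2 against 51.2 TPM in replicate 1.

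Host genes of snoRNAs are known for starts of the terminal oligopyrimidine type, in which a C at the first base is followed by a run of C and T. Of the hosts, 5 have a start that holds TATA, and such a start of each is shown. The stretches run from 40 bases before to 20 bases from the start in RefSeq (GRCm38.p6), 5′ to 3′. Another start of 1110038B12Rik, whose stretch overlaps the one shown, also holds TATA and is left out. Capitals mark TATA between bases 40 and 21 before the start. They also mark a run of a C and at least 4 letters that are each C or T. Of runs whose C lies within 10 bases of the start, the nearest to the start is marked. Letters C or T just before the marked C, as in Gas5 and Snhg12, stay in lower case. Both motifs were read on the sense strand only. These motifs were chosen after the sequences were seen. AA465934, Snhg20, AI506816 and another start of Gas5 have windows without this TATA and are not shown. The window of Snhg5, also not shown, holds TATA that runs just past base 21 before the start and was not counted.
Gas5 (chr1:161035126-161035185, plus strand): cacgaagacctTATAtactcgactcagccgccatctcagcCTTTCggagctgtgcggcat
Snhg8 (chr3:123508317-123508376, minus strand): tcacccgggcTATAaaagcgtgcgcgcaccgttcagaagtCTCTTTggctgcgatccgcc
Snhg12 (chr4:132308638-132308697, plus strand): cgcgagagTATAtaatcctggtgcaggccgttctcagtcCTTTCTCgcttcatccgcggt
1110038B12Rik (chr17:34952449-34952508, minus strand): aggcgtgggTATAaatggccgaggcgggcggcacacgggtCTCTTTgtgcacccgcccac
Snhg1 (chr19:8723447-8723506, plus strand): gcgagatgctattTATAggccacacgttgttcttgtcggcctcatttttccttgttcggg
Of 9 hosts with a RefSeq window, 6 held the pyrimidine run, against 34.4% of 27025 genes. TATA within these limits was held by 5 of 9 hosts, against 6.38% of 27025 genes. Wider limits would add Snhg5, and the share of all genes under them was not counted. In Snhg1, whose window has the TATA, the letters at the start are ctcat and do not meet the pyrimidine rule. For all 59 lincRNA genes with a window, 24 held the pyrimidine run and 8 the TATA.

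Of 7 lincRNA genes in the class that are known from heart and vessel biology, 3 passed the minimum (Malat1, Carmn and Bvht). Carmn, known from cardiac and smooth muscle cells, had 2.33 TPM in replicate 2 against 4 TPM in replicate 1. Bvht (Braveheart), known from cardiac commitment of mouse embryonic stem cells, had 2.22 TPM in replicate 2 against 3.08 TPM in replicate 1. They lie side by side on chromosome 18, on opposite strands. Fendrr had 0.01 TPM in replicate 2 against 0.04 TPM in replicate 1, and Hotair was at 0 in both. Mirt1 had 0.34 TPM in replicate 2 against 0.11 TPM in replicate 1, and Miat was given above.

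Several lincRNA genes lay beside genes of the heart, and another lay beside the gene of a chromatin remodeller. Gm34030 (chr8:57331692-57334585, minus strand), 7059 nt from Hand2, a transcription factor of the right ventricle, had 5.35 TPM in replicate 2 against 6.15 TPM in replicate 1. In the kallisto-layout table Gm34030 had 9.07 and 10.6 TPM in replicates 2 and 1. Its words occur to 67.3% in 5033428I22Rik, so the split of reads between these genes is uncertain. AC158549.1 (chr19:56741029-56746913), 7916 nt from the beta-1 adrenergic receptor gene Adrb1, had 7.25 TPM in replicate 2 against 9.57 TPM in replicate 1. 9330158H04Rik on chromosome 6 runs opposite to Chrm2, the muscarinic receptor of the heart, and had 18.6 TPM in replicate 2 against 21.6 TPM in replicate 1. Chrm2 had 31.9 TPM in replicate 2 against 26.2 TPM in replicate 1. 1810026B05Rik (chr7:73539203-73558395, minus strand), named Chaserr in RefSeq and known to hold down its neighbour, the chromatin remodeller Chd2, had 13.3 TPM in replicate 2 against 12.3 TPM in replicate 1. Chd2 had 15.1 and 16.8 TPM in replicates 2 and 1, and 29.9% of the words of 1810026B05Rik occur in it, so the split of reads between them is uncertain. These 4 lincRNA genes were picked for their neighbours, and 9330158H04Rik is also among the 20 highest.

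Starts opposite a coding gene were frequent. In 21 of the 104 genes (20.2%) a transcript started within 1000 nt of the start of a protein-coding gene on the other strand, against 335 of 5949 other genes of the class (5.63%). The distance between the starts was 41 to 748 nt, with a median of 266 nt. The coding gene was at 2 TPM or more in 20 of 21 pairs and above the lincRNA in 18. The pair with the highest coding gene was Gm12319, with 4.74 TPM in replicate 2 against 6.11 TPM in replicate 1, beside Eno3, the muscle enolase, with 621 TPM in replicate 2 against 652 TPM in replicate 1.

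Gm9899 had 3.58 TPM in replicate 2 against 4 TPM in replicate 1, and its partner Kcnk3, a potassium channel, had 94.9 and 115 TPM in replicates 2 and 1. Gm43050 had 5.15 TPM in replicate 2 against 5.19 TPM in replicate 1, and its partner Tbx5, a cardiac transcription factor, had 10.04 and 11.4 TPM in replicates 2 and 1. The lincRNA was the higher partner in Gm20186 with Lsm8, in Gas5 with Zbtb37 and in A430046D13Rik with Myl6b. The other genes of the class were mostly silent, so the shares set expressed lincRNA genes against silent ones.

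**Figure D3:**
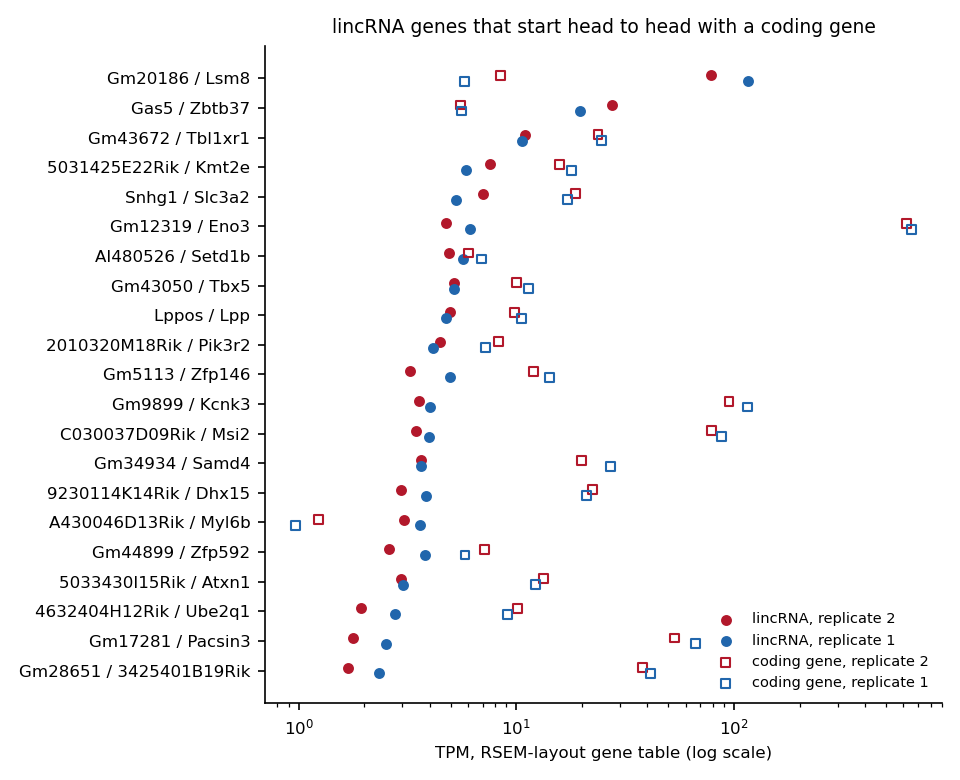
TPM (x axis, RSEM-layout gene table, log scale) of the 21 lincRNA genes (filled circles) and of the coding genes that start opposite them (open squares), with replicate 2 in red and replicate 1 in blue and the pairs in order of the lincRNA's mean. In 18 of the 21 pairs the squares lie to the right of the circles.

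RefSeq promoter windows of these genes were higher in CpG than all windows were. The ratio of observed to expected CpG had a median of 0.882 over 12 windows of lincRNA genes in such pairs, 0.904 over 11 windows of snoRNA hosts, 0.621 over 69 windows of 59 lincRNA genes, and 0.384 over all 32851 windows of 300 bases. A ratio of 0.6 or more was found in 52.2% of the windows of lincRNA genes and in 35.8% of all windows. Without the snoRNA hosts the median was 0.494 over 58 windows of lincRNA genes, and 43.1% of them had a ratio of 0.6 or more. The set of all windows was not limited to expressed genes.

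The expressed genes also differed in structure from the rest of the class. Their median exonic sequence was 2255 nt, against 1067 nt for the 5949 other genes. Only 1 transcript was annotated for 30.8% of them, against 72.7% of the other genes. A protein-coding gene lay within 5 kb of 51.9% of them and of 22.1% of the other genes. Exons of a coding gene on the other strand overlapped 10 of the 104 genes. The sources used here do not say whether counting used strand, so reads in the exon parts that overlap cannot be told apart between these genes and their partners.

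Not every gene in the class is noncoding by other sources. RefSeq, matched by symbol or synonym, gave a lncRNA biotype for 62 of the 104 genes, a protein-coding biotype for 7, a pseudogene biotype for 3, a transcribed pseudogene for 1 and no entry for 31. The list of small peptides held 1 gene of the class, which is among the 104. 1810058I24Rik, which is known to encode the mitochondrial micropeptide Stmp1, had 92.6 TPM in replicate 2 against 76.7 TPM in replicate 1. Lsmem2, which RefSeq lists as protein-coding, had 25.7 TPM in replicate 2 against 25.5 TPM in replicate 1. Tmem250-ps, also protein-coding in RefSeq, had 28.0 TPM in replicate 2 against 28.4 TPM in replicate 1. Among the highest genes with no RefSeq entry, Gm49708 had 132 TPM in replicate 2 against 117 TPM in replicate 1, and AC132253.9, which shares words with it, had 40.3 TPM in replicate 2 against 37.1 TPM in replicate 1. Gm44386 had 38.4 TPM in replicate 2 against 34.1 TPM in replicate 1. Gm5532, a lncRNA in RefSeq, had 32.3 TPM in replicate 2 against 28.7 TPM in replicate 1, and 2210408F21Rik, which starts opposite Lncpint, had 20.4 TPM in replicate 2 against 19.6 TPM in replicate 1.

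Between the libraries, 0 of the 104 lincRNA genes were 2-fold or more apart by log2(TPM + 0.1), a scale on which the changes of low genes come out too small. Of all 10779 genes at the same minimum 2.98% were apart, 2.29% higher in replicate 2 and 0.677% lower. By kallisto-layout TPM 2 of the 104 were apart, Lncpint and Gm44899. With 1 library on each side there is no test. At 1.5-fold, a larger share of the lincRNA genes than of all genes was apart: 15 of the 104, 7 of them higher in replicate 2 and 8 lower, against 8.28% of all genes, 5.55% higher and 2.72% lower. These shares were not matched for level, and the median was 4.50 TPM for the lincRNA genes and 10.3 TPM for protein-coding genes. Genes with fewer counts vary more from counting error. The log2 ratios ran from -0.79 for Gm26532, which rests on 29 counts in replicate 2 and 49 in replicate 1, to 0.90 for Lncpint, with an SD of 0.37, and 52 of the 104 genes were higher in replicate 2. For the 9993 protein-coding genes the SD was 0.44 and the median 0.014.

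Lncpint, a transcript induced by p53, had the highest log2 ratio, replicate 2 over replicate 1. It had 17.04 TPM in replicate 2 against 9.08 TPM in replicate 1, a log2 ratio of 0.90. In expected counts it had 401 in replicate 2 and 195 in replicate 1, or 2.00-fold after scaling by library total, with an exact 95% interval of 1.68 to 2.38. In the kallisto-layout table it had 28.2 TPM in replicate 2 against 11.2 TPM in replicate 1, which is past 2-fold. Intervals of this kind cover counting error only.

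Among the 89 genes with a mean count of 50 or more, the next highest were AC119982.1 with 5.22 TPM in replicate 2 against 3.24 TPM in replicate 1, Snhg12, and Gm35330 with 5.2 TPM in replicate 2 against 3.40 TPM in replicate 1. They were followed by Neat1 and by AW112010, an RNA of immune cells that responds to interferon, with 10.2 TPM in replicate 2 against 6.97 TPM in replicate 1. The log2 ratios of these 5 genes ran from 0.54 for AW112010 to 0.67 for AC119982.1. Lymphocyte and adipocyte markers were higher in the same library, with the sums given above, and their part was not tested. For Neat1 the counts differed less than the TPM, 1.23-fold against 1.48-fold. For Gm35330 the count interval of 0.904 to 1.72 included 1, and its kallisto-layout levels were level, with 2.82 TPM in replicate 2 against 2.83 TPM in replicate 1.

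Carmn was the lowest of these 89 genes, with 88 counts in replicate 2 and 143 in replicate 1 and a log2 ratio of -0.75. In counts it was 1.67-fold higher in replicate 1, with an exact 95% interval of 1.27 to 2.21. 4632415L05Rik, a transcribed pseudogene in RefSeq, had 2.25 TPM in replicate 2 against 3.81 TPM in replicate 1, 2310039L15Rik had 2.49 and 4.01 TPM in replicates 2 and 1, and 3110039I08Rik had a log2 ratio of -0.69. Prr33 had 2.96 TPM in replicate 2 against 4.6 TPM in replicate 1, and 1300002E11Rik had 4.27 and 6.51 TPM in replicates 2 and 1. For the last 2 the counts differed less than the TPM, with intervals of 0.704 to 1.11 for Prr33 and 0.677 to 1.12 for 1300002E11Rik. In the kallisto-layout table Prr33 had 4.315 TPM in replicate 2 against 4.312 TPM in replicate 1. Over all 104 genes the count interval excluded 1 for 36, of which 21 were higher and 15 lower in replicate 2. That is a smaller share than the 47.1% of all 10779 genes for which it did, 29.8% higher and 17.3% lower, and the interval narrows as counts grow.

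**Figure D4:**
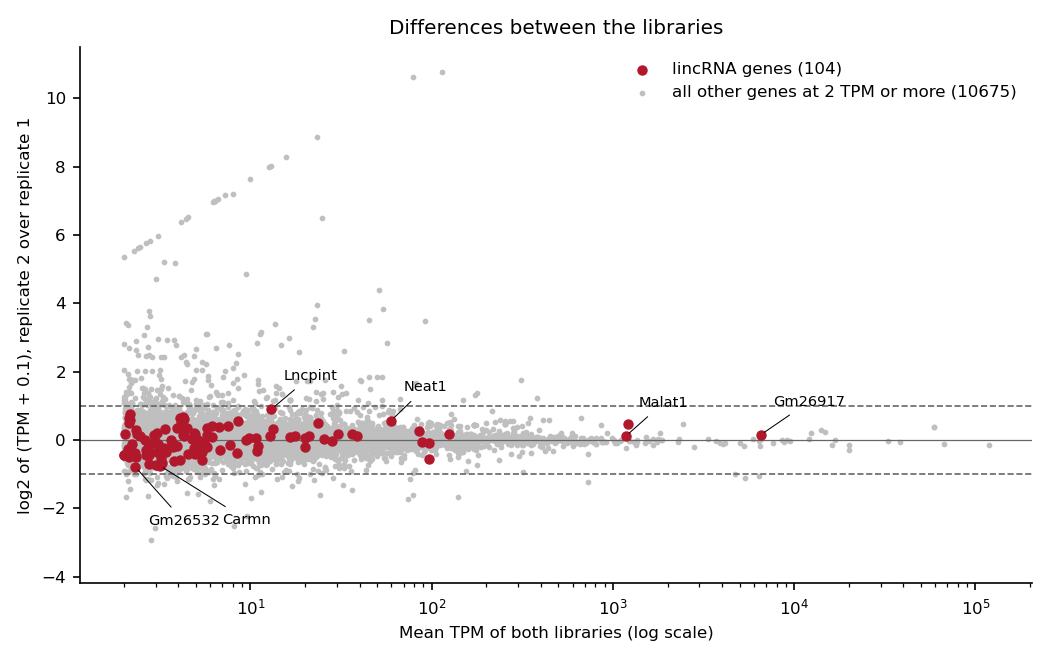
log2 ratio of TPM + 0.1, replicate 2 over replicate 1 (y axis), against the mean TPM of both libraries (x axis, log scale), for the 104 lincRNA genes in red and for all other genes at 2 TPM or more in grey, with dashed lines at 2-fold. The red points lie between -0.79 and 0.90, inside the dashed lines, while grey points reach far above them.

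The same genes were then compared across the 2 kinds of quantification. In the RSEM-layout against the kallisto-layout table, 19 of the 104 genes were 2-fold or more apart, against 5.61% of 10774 genes at the same minimum. Of these, 8 were higher in the RSEM-layout table and 11 lower, against 3.91% and 1.7% of all genes, and with counts in place of TPM 13 were higher and 4 lower. At 1.5-fold 35 of the 104 were apart, 12 higher and 23 lower, against 14.3% of all genes, 4.75% higher and 9.56% lower. The median log2 ratio of the 104 genes was -0.26, and that of protein-coding genes -0.17. Taken by library, the medians were -0.33 in replicate 2 and -0.21 in replicate 1. Spearman's rho across the 104 genes was 0.739 between the tables and 0.909 between the libraries, where genes are not independent replicates. RSEM-layout levels chose the 104 genes and the genes they are set against. The directions, medians and rho between the tables are therefore shaped by that choice. It left out 62 genes of the class at 2 TPM or more only in the kallisto-layout tables, and 10 of the 104 were under 2 TPM there.

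Sequence shared with other genes went along with these differences. At least 50% of the 31-nt words were found in other genes for 18 of the 104 genes, and 9 of these 18 were 2-fold or more apart between the tables. Under 10% of the words were shared in 65 genes, of which 4 were 2-fold or more apart. The median size of the log2 ratio was 1.03 in the first set and 0.30 in the second. Of the protein-coding genes at the minimum, 3.82% shared 50% or more.

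Genes listed at 0 in the kallisto-layout table of both libraries were Gm10076, Gm49207, Gm11008, Gm47101 and Gm13166. Gm10076 had 22.0 TPM in replicate 2 against 20.2 TPM in replicate 1 of the RSEM-layout table, and 82.2% of its words occur in Rpl41, a ribosomal protein gene with 603 TPM in replicate 2 against 565 TPM in replicate 1. Gm49207 had 17.1 TPM in replicate 2 against 16.04 TPM in replicate 1, with 83.1% of its words in Ahsa1. Gm11008 had 9.56 TPM in replicate 2 against 12.1 TPM in replicate 1, with 100% of its words in other genes, 69 of them. Gm47101 had 4.44 and 3.46 TPM in replicates 2 and 1, and Gm13166 had 2.63 and 1.65 TPM. Gm49207 (279 nt) and Gm47101 (275 nt) are also shorter than 300 nt. Of 10709 annotated transcripts under that length, 7.62% in replicate 2 and 7.003% in replicate 1 had a count in the RSEM-layout table, and 0.299% in replicate 2 and 0.187% in replicate 1 in the kallisto-layout table. For a gene listed at 0 no fold is given.

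The next in this direction was Gm44899, with 2.61 TPM in replicate 2 against 3.82 TPM in replicate 1 of the RSEM-layout table, and 0.340 and 1.14 TPM in the kallisto-layout table. Gm44899 rests on 23 and 32 counts in the RSEM-layout table.

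In the other direction AC121821.1 was the farthest. It had 2.66 TPM in replicate 2 against 3.44 TPM in replicate 1 of the RSEM-layout table, and 74.5 TPM in replicate 2 against 51.2 TPM in replicate 1 in the kallisto-layout table, 20.6-fold more on average. Snora74a, whose RSEM-layout counts were given above, lies in an exon of it. Gm20186 had 78.2 TPM in replicate 2 against 116 TPM in replicate 1, and 920 TPM in replicate 2 against 1297 TPM in replicate 1 in the kallisto-layout table, with 79.0% of its words in Gm26809. Gm43305 had 5.2 and 4.65 TPM in replicates 2 and 1 and 33.0 and 26.7 TPM in the kallisto-layout table. Snhg20 had 4.85 and 3.77 TPM in replicates 2 and 1 and 24.4 and 12.9 TPM in the kallisto-layout table. Gm8066 and AC102496.1 followed, 3.25-fold and 3.02-fold higher in the kallisto-layout table. All 12 snoRNA hosts were lower in the RSEM-layout table, 5 of them by 2-fold or more, with a median log2 ratio of -0.66. Most genes were lower there too, 80 of the 104 lincRNA genes (76.9%) and 84.5% of protein-coding genes.

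**Figure D5:**
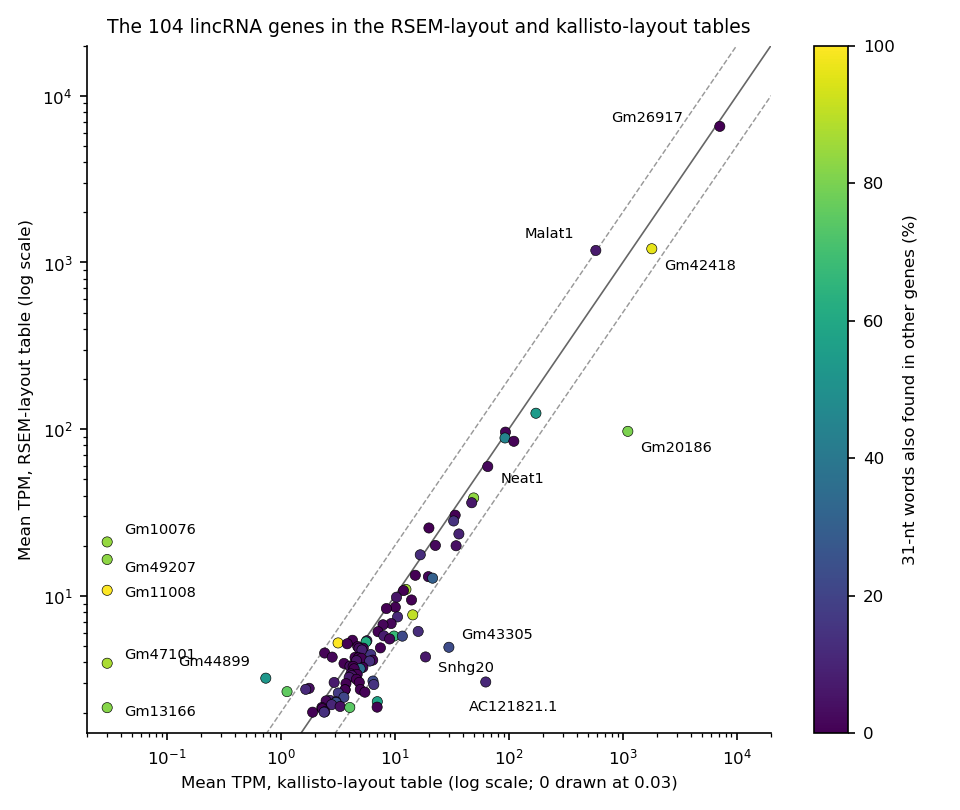
Mean TPM of the 104 lincRNA genes in the RSEM-layout table (y axis) against that in the kallisto-layout table (x axis), both log scale, coloured by the percent of 31-nt words found in other genes, with the line of equality and dashed lines at 2-fold. The 5 genes at 0 in the kallisto-layout table form the column at the left, and Gm20186, AC121821.1, Gm43305 and Snhg20 lie farthest to the right of the lines.

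For Malat1 the tables differed in the shares of its transcripts. Its RSEM-layout levels were 1228 and 1133 TPM in replicates 2 and 1, against 614 and 548 TPM in replicates 2 and 1 of the kallisto-layout table. The full-length Malat1-201 took 41.4% of the gene's TPM in replicate 2 and 42.1% in replicate 1 of the RSEM-layout table, and 99.9% of the kallisto-layout TPM in both libraries. In counts the log2 ratio between the tables was -0.13, against 1.02 in TPM. For the hosts, log2 ratios in counts were -0.69 for Snhg20 and -0.51 for Snhg1, against -2.02 and -1.36 in TPM.

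The leading transcript of a gene was compared between libraries and between tables. Of 72 genes with 2 or more annotated transcripts, 61 had the same leading transcript in replicates 2 and 1 of the RSEM-layout table. Among 69 of them that were above 0 in both kallisto-layout tables, 53 had the same leading transcript in replicates 2 and 1 of that table, against 58 in the RSEM-layout table. Within replicate 2, 44 of these 69 had the same leading transcript in both tables, and within replicate 1, 48 did. All 4 transcript tables gave the same one for 40. Gas5, with 25 transcripts, was one of the 11 genes whose top transcript changed, with a transcript of 502 nt at 43.4% in replicate 2 and one of 557 nt at 45.6% in replicate 1. The median share of the top transcript over the 72 genes was 62.8%.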

How the data were processed

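Total RNA was sequenced in 2 libraries of 1 group, and tables of genes and transcripts were deposited. All refer to mm10 and GENCODE M21, per the deposited readme. The tables are named by their column layouts, because programs, versions and strand setting were not given in the sources used here. The expected counts were deposited by the authors in the RSEM-layout tables, and need not be whole. Estimated counts of the same kind were deposited in the kallisto-layout tables. TPM was deposited by the authors in both layouts, in the RSEM-layout tables also as a posterior mean. Per the file headers the RSEM-layout transcript tables give an isoform percent, the part of a gene's level that falls to each transcript.

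The genes, gene lists and motifs were chosen with earlier results of these data known. Levels are means ± SD of TPM from the RSEM-layout gene table. Ratios are differences of log2(TPM + 0.1), replicate 2 over replicate 1 and RSEM-layout over kallisto-layout, whose transcripts were summed per gene and averaged over the libraries. With 1 group no test was made. Genes named are the 20 highest, the members of role lists, the 6 at each end of the library ratio (mean count of 50 or more) and of the table ratio, 3 genes on each side of the minimum and the 5 with most exonic sequence, of which Gm37494 had 16543 nt and Mir99ahg 14303 nt. Other genes were named after their values were seen. Gene and transcript sequences were compared by shared 31-nt words on both strands. Of the 104 genes, 59 matched a RefSeq promoter window of 250 bases before to 50 after the start. Count ratios have exact binomial intervals of 95%. The 2-fold call was checked on simulated counts. Alternatives used edgeR 4.0.16 and DESeq2 1.42.0 on expected counts rounded to whole numbers, only for scaling. Other software was Python with pandas 2.3.3, numpy 2.4.6 and scipy 1.17.1.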

Additional observations from a re-analysis of the deposited data

How the results depend on the processing

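Of 46 alternatives, 36 stayed within the tolerance. It was a factor of 1.5 for counts, and 0.1 on the log2 scale for the median between libraries. For summed TPM and for the median between tables it was the SD between the libraries. Some alternatives could not leave it, so their staying carries no weight. With 2 libraries, leaving out 1 moves the mean sum by less than the SD. A subset of genes or a larger pseudocount cannot add to 0 genes apart between the libraries. The 156 genes chosen by kallisto-layout levels lie at the limit of the factor of 1.5. The number of expressed lincRNA genes was 186 with a minimum of 1 TPM and 45 with one of 5 TPM. The summed TPM was 12005 in the kallisto-layout table, 19501 after rescaling over genes outside the mitochondrial chromosome, 7SL, 7SK and spike-ins, and 20490 CPM when expected counts took the place of TPM. Without replicate 1 it was 10749 and without replicate 2 it was 9563. By kallisto-layout TPM, 2 genes (Lncpint and Gm44899) were 2-fold or more apart between the libraries, and at 1.5-fold 15 were apart in the RSEM-layout table. Of the 104 genes, 35 were 1.5-fold or more apart between the tables, and leaving out replicate 1 or replicate 2 gave 19 and 17 genes at 2-fold. The median log2 ratio between the tables was -0.095 with counts and -0.091 after scaling by protein-coding genes, and without replicate 1 or replicate 2 it was -0.33 and -0.21. The cause was not tested. A minimum of 2 TPM on kallisto-layout levels would choose 156 genes, of which 94 are among the 104.

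No paired analysis was possible because there is 1 group. Genes with low counts are limited by depth: the lowest count of a chosen gene was 9.68. Whether the libraries share an animal was not tested, and neither was how reads were split between genes that share sequence.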
